A study of Sorghum bicolor with 16 samples.

Results

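The genes described here are SORBI_3004G033100 and SORBI_3004G285000, the only 2 genes of the deposited sorghum expression table annotated to mRNA methylation. They were picked by their gene identifiers, out of 29033 genes in the table, of which 22460 carried any Gene Ontology (GO) term. They were followed in roots, taken at the 3-leaf phase, of 2 strains of sweet sorghum. Roma is labelled salt-sensitive and M-81E is labelled salt-tolerant. The groups were Roma under salt stress, Roma control, M-81E under salt stress and M-81E control, each sequenced as antibody-enriched (IP) and unenriched (input) RNA, which gave 8 groups of 2 biological replicates and 16 samples. No mutation, transgene or other agent is named for any group, and the labels state neither the dose nor the duration of the salt stress.

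N6-methyladenosine (m6A) is a methyl group added to adenosines inside messenger RNA. In Arabidopsis it is placed by a nuclear writer complex that combines methyltransferase subunits, which use S-adenosylmethionine as the methyl donor, with adaptor subunits that hold the complex on its targets. Proteins with a YTH domain bind the mark, demethylases of the ALKBH family remove it, and in plants the mark is found mostly near the ends of coding regions and in 3' untranslated regions (3' UTRs). m6A-seq maps it as a peak, a stretch of transcript where antibody-enriched fragments exceed the input. Both genes' own transcripts carried such peaks, which are described after their levels.

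The annotation gave the 2 genes different roles. SORBI_3004G033100 carried 3 terms: mRNA methylation, regulation of alternative mRNA splicing via the spliceosome (a term held by 11 genes of the table), and nucleus. SORBI_3004G285000 carried 8 terms, among them mRNA methylation, S-adenosylmethionine-dependent methyltransferase activity (141 genes), RNA binding, protein binding, nuclear speck (56 genes), and embryo development ending in seed dormancy (271 genes). Its other terms were nucleus and chloroplast. Only SORBI_3004G285000 therefore carried an enzymatic term. Both products are described as hypothetical proteins. A search of the same annotation for m6A readers and for m6A erasers matched 0 genes in each role, so the description stops at the writers.

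Both genes lie on chromosome 4, by the authors' coordinates. No source used here names the genome build. SORBI_3004G033100 is on the plus strand at 2662338 to 2670260, a span of 7923 bases. SORBI_3004G285000 is on the minus strand at 62738099 to 62742223, a span of 4125 bases.

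Expression was available as FPKM, a level counted in sequenced fragments and scaled by transcript length and library size, in 8 libraries, 2 for each strain and treatment. The labels leave it unsaid if IP or input reads gave these values, so a difference in level and a difference in enrichment cannot be told apart. The depth behind each value is unknown. Summed FPKM ran from 325987 to 377097 and the genes at FPKM of at least 1 from 14477 to 16006. In a principal component analysis M-81E control replicate 2 stood apart, at 94.6 on the second component against -57.6 to 9.06 for the other 7 libraries. Of 10 Casparian strip genes, a root marker list, 6 to 8 reached FPKM 1 in each library, with summed levels of 66.8 to 129. Of 18 light-harvesting genes, a leaf marker list, 0 to 3 did, with summed levels of 2.97 to 7.52.

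SORBI_3004G285000, the gene annotated as a methyltransferase, had its highest level in salt-stressed Roma roots and its lowest in Roma control roots. Its FPKM was 16.4 and 14.9 in the Roma salt libraries, against 6.54 and 9.20 in the Roma control libraries. In M-81E it was 8.96 and 10.5 in the salt libraries, against 11.6 and 12.2 in the control libraries. Salt libraries thus lay above control in Roma and below control in M-81E, with no overlap in either strain. In Roma 59.4% of all 16280 tested genes showed such a separation of the 2 treatments, and in M-81E 37.8% did. A separation in opposite directions in the 2 strains was found for 7.31% of tested genes, and for 3.31% in the direction seen here. In whole roots, fewer cells of a type and less RNA per cell cannot be told apart.

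**Figure D1:**
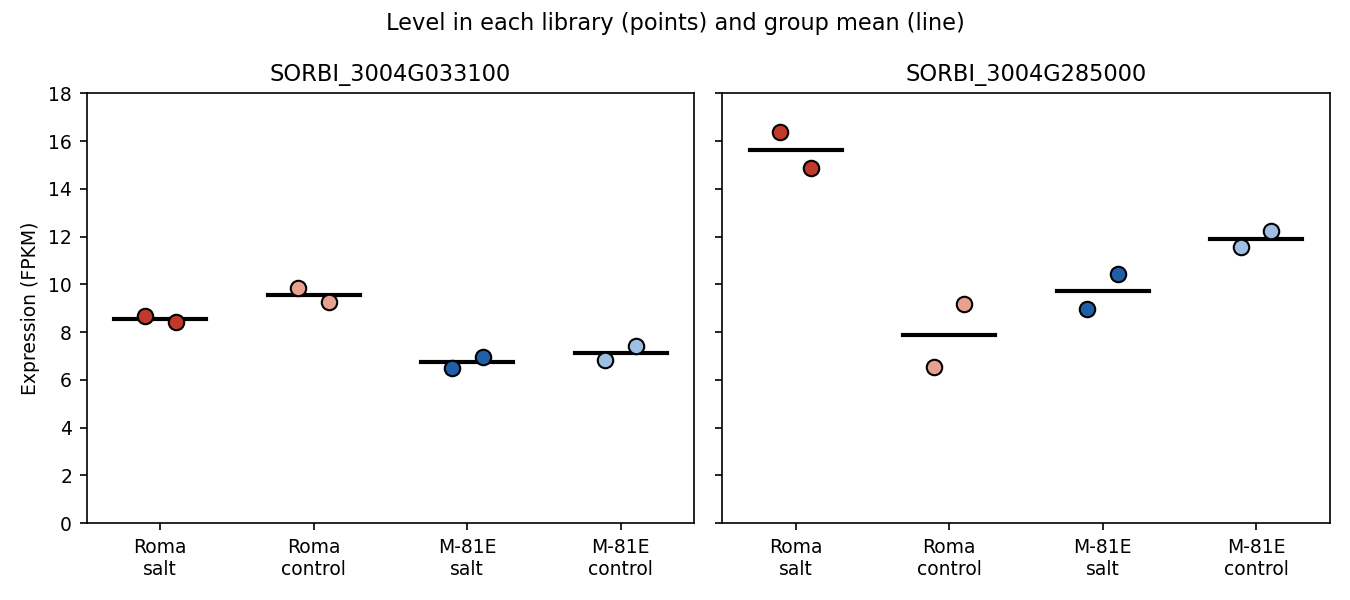
FPKM (y axis, linear, from 0) of SORBI_3004G033100 (left) and SORBI_3004G285000 (right) in each library (points) of the 4 strain and treatment groups, with the group mean as a line. The level of SORBI_3004G285000 averages 15.6 FPKM in Roma salt and 7.87 FPKM in Roma control, while SORBI_3004G033100 stays between 6.51 and 9.85 FPKM in all libraries.

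Averaged per group, SORBI_3004G285000 had 15.6 ± 1.07 FPKM in Roma salt and 7.87 ± 1.88 FPKM in Roma control (SD, n = 2 each). In M-81E it averaged 9.71 ± 1.06 FPKM under salt and 11.9 ± 0.453 FPKM in control (SD, n = 2 each). From high to low the order was Roma salt, M-81E control, M-81E salt and Roma control. M-81E salt and Roma control, the lowest neighbours, overlapped, since the higher Roma control library, at 9.20, lay between the M-81E salt libraries. The other neighbouring groups did not overlap. Among pairs of groups that share a strain or a treatment, 37.8% to 67.6% of tested genes showed such a separation.

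SORBI_3004G033100, the gene that carries the splicing term and no enzymatic term, varied less. Its FPKM was 8.70 and 8.45 in the Roma salt libraries, against 9.85 and 9.25 in the Roma control libraries. In M-81E it was 6.51 and 6.98 under salt, against 6.83 and 7.43 in control. The treatments overlapped in M-81E and did not overlap in Roma, where both salt libraries were lower. Such a separation in Roma, in either direction, was shown by 59.4% of tested genes. All 4 Roma libraries lay above all 4 M-81E libraries, which was so, in either direction, for 29.2% of tested genes.

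Group means of SORBI_3004G033100 were 8.57 ± 0.178 FPKM in Roma salt and 9.55 ± 0.426 FPKM in Roma control, then 6.74 ± 0.331 FPKM in M-81E salt and 7.13 ± 0.425 FPKM in M-81E control (SD, n = 2 each). Ordered from high to low they ran Roma control, Roma salt, M-81E control and M-81E salt, and only the M-81E pair overlapped. Between the Roma treatments 59.4% of tested genes did not overlap. The gene sat at nearly the same rank of expression everywhere: 74.0% to 76.2% of all genes in the table were lower in each of the 8 libraries. For SORBI_3004G285000 that share was 83.9% and 82.2% in Roma salt, against 70.1% and 75.0% in Roma control. In M-81E it was 78.6% and 79.4% under salt, against 81.3% and 81.9% in control.

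Neither gene passed the test in any of the 5 comparisons. The test was limma's moderated test on log2(FPKM + 1) over the 16280 genes whose FPKM averaged 1 or more, with a Benjamini-Hochberg adjusted p under 0.05 as the threshold. On that scale, which understates changes of low levels, SORBI_3004G285000 differed by 0.92 between salt and control in Roma (95% interval 0.39 to 1.45). The unadjusted p was 0.00543 and the limma adjusted p was 0.185, rank 478 of 16280 by p. At the same threshold 0.473% of all tested genes were called for salt in Roma. Both Roma salt libraries of this gene lay above both controls, a separation that 59.4% of tested genes showed in either direction. The interval rests on 2 libraries per group.

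In M-81E the salt difference of SORBI_3004G285000 was -0.27 (95% interval -0.81 to 0.26, limma adjusted p = 0.600), where 0.491% of tested genes were called. The test of the difference between the strains, the salt change in Roma minus that in M-81E, gave 1.19 (95% interval 0.44 to 1.95). Its unadjusted p was 0.00815 and its limma adjusted p was 0.372, at rank 353, and 0.178% of tested genes were called. The unequal response of the strains was therefore not called for this gene.

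SORBI_3004G033100 differed by -0.14 between salt and control in Roma (95% interval -0.56 to 0.28, limma adjusted p = 0.832). In M-81E the difference was -0.07 (95% interval -0.49 to 0.35, limma adjusted p = 0.883). The salt change in Roma minus that in M-81E was -0.07 (95% interval -0.67 to 0.53, limma adjusted p = 0.952). These intervals bound the salt response of the gene without showing that it had none.

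**Figure D2:**
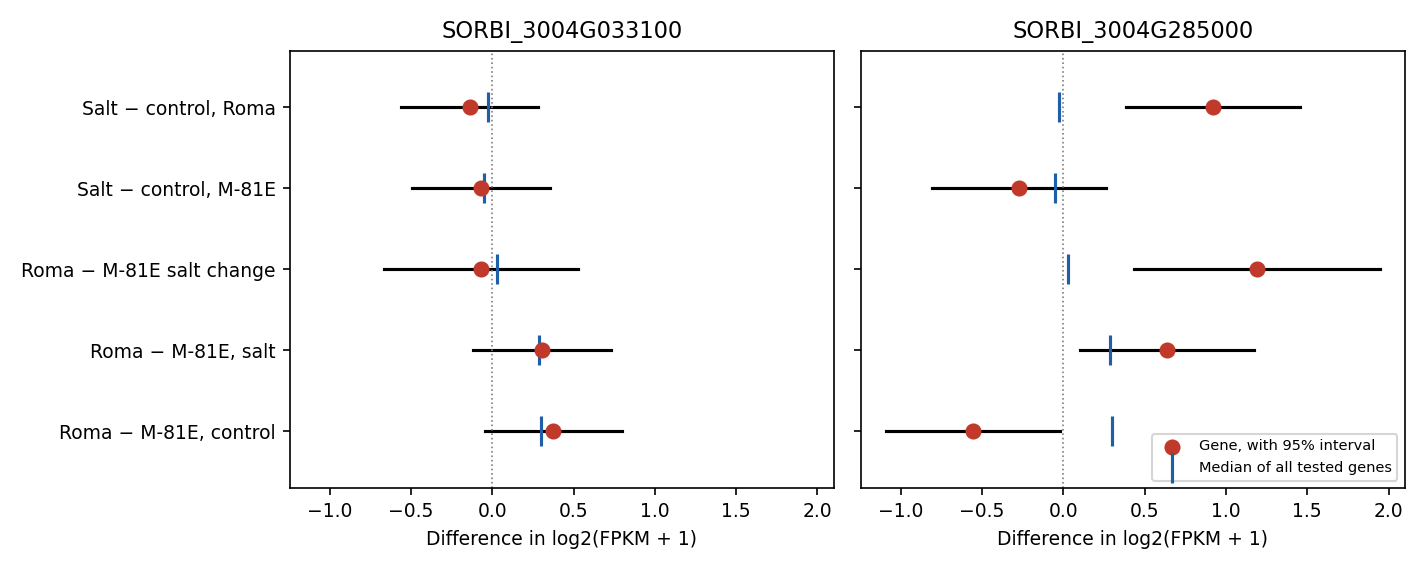
Differences in log2(FPKM + 1) (x axis) for SORBI_3004G033100 (left) and SORBI_3004G285000 (right) in the 5 comparisons (rows), as limma estimates with 95% intervals, with the median difference of all 16280 tested genes as a blue tick. The estimates of SORBI_3004G033100 lie beside that median, and that of SORBI_3004G285000 for salt in Roma, at 0.92, lies away from it.

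Levels of the tested genes were higher in Roma than in M-81E as a whole, by a median of 0.29 under salt and 0.30 in control on the log2 scale. Quantile scaling brought these medians to 0.06 under salt and 0.05 in control. SORBI_3004G033100 was higher in Roma by 0.31 under salt (95% interval -0.12 to 0.73, limma adjusted p = 0.292) and by 0.38 in control (95% interval -0.05 to 0.80, limma adjusted p = 0.193), values that did not pass the test. Relative to the median of all tested genes these differences were 0.02 under salt and 0.08 in control. Under salt 8.42% of tested genes were called between the strains, and in control 12.1%.

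SORBI_3004G285000 changed sides between the treatments. Under salt it differed by 0.64 between Roma and M-81E (95% interval 0.10 to 1.17, limma adjusted p = 0.123), and relative to the median of all tested genes by 0.35. In control it differed by -0.56 (95% interval -1.09 to -0.02, limma adjusted p = 0.142), and relative to the median by -0.86. Without Roma control replicate 1 the difference in control was -0.34 (95% interval -1.02 to 0.34). The Roma and M-81E libraries of this gene did not overlap in either treatment, a separation shown by 67.6% of tested genes under salt and by 59.4% in control.

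In a comparison of the strains over both treatments, SORBI_3004G033100 was higher in Roma by 0.34 (95% interval 0.04 to 0.64, limma adjusted p = 0.0852), where 27.7% of tested genes were called. Without M-81E control replicate 2 the difference was 0.37, where the median of all tested genes was 0.32. The gene passed the threshold in that fit alone, which kept only M-81E control replicate 1 in its group. Under quantile scaling the difference was 0.05. For SORBI_3004G285000 the value over both treatments was 0.04 (limma adjusted p = 0.870), with differences of opposite sign in control and under salt.

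Both values are scaled by transcript length, so the 2 levels can be set against each other within a library, as FPKM values and not as abundance, since the fragments behind them may be enriched. The level of SORBI_3004G285000 divided by that of SORBI_3004G033100 was 1.88 and 1.76 in the Roma salt libraries, against 0.664 and 0.995 in the Roma control libraries. In M-81E it was 1.38 and 1.50 under salt, against 1.70 and 1.64 in control. The FPKM of SORBI_3004G285000 was thus the higher of the pair in 6 libraries, and in Roma control replicate 2 the FPKM values were nearly equal, at 9.20 and 9.25. Across the 8 libraries their log2(FPKM + 1) values had a Pearson r of -0.16, a description of libraries that share strains and treatments.

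Genes with patterns most like each of the 2 were looked up by Pearson r of log2(FPKM + 1) over the same 8 libraries. For SORBI_3004G033100 the closest were SORBI_3001G468600, annotated to serine-tRNA ligase (r = 0.997), SORBI_3001G072000, annotated to respiratory chain complex II (r = 0.996), and SORBI_3005G154500, annotated to the nucleus (r = 0.995). SORBI_3002G009500, annotated to an SCF ubiquitin ligase complex, and SORBI_3003G109900, annotated to the nucleolus, followed with r = 0.991 each. These patterns are mainly a strain difference: SORBI_3001G468600 had 51.8 and 46.3 FPKM in Roma salt and 74.0 and 62.1 FPKM in Roma control, against 23.9 and 29.0 FPKM in M-81E salt and 29.3 and 34.4 FPKM in M-81E control.

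For SORBI_3004G285000 the closest were SORBI_3001G505200, annotated to GTPase activity (r = 0.959), SORBI_3005G126100, annotated as a receptor kinase (r = 0.955), and SORBI_3001G027800, annotated as a mannan endo-1,4-beta-mannosidase (r = 0.949). SORBI_3006G026000, with no GO term, had r = 0.939, and SORBI_3007G216500, annotated to the Ino80 complex, had r = 0.936. The last of these had 45.8 and 49.3 FPKM in Roma salt against 29.2 and 30.5 FPKM in Roma control, and 35.4 and 36.4 FPKM in M-81E salt against 41.4 and 41.1 FPKM in M-81E control. It was the same order of groups as in SORBI_3004G285000: Roma salt highest and Roma control lowest.

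The authors listed m6A peaks once per strain and treatment, and both genes carried peaks annotated to the 3' UTR. SORBI_3004G033100 had 1 peak in each of the 4 lists. SORBI_3004G285000 had 1 peak in the Roma salt, M-81E salt and M-81E control lists and none in the Roma control list. A peak in all 4 lists was found for 27.5% of tested genes. A peak absent from the Roma control list only was found for 12.7%. The fold enrichment of IP over input and the p value given for a peak are the authors' values, 1 per list, so differences between lists have no replicate error and no test.

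On SORBI_3004G033100 every peak covered the same stretch close to the 3' end. The Roma salt peak ran from 2665926 to 2669994 in 6 blocks with 712 bases in all, and the Roma control peak lay at 2669668 to 2669964 as a single block of 297 bases. The M-81E salt peak ran from 2668220 to 2669964 in 4 blocks with 504 bases in all, and the M-81E control peak lay at 2669668 to 2669994 as a single block of 327 bases. The near edge of each peak was 266 or 296 bases from the annotated gene end.

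The salt peaks of this gene were the wider ones in both strains. Their shared blocks had the same inner edges: a block at 2668683 to 2668752, a block at 2669481 to 2669536, and a last block starting at 2669630 were listed in Roma salt and in M-81E salt alike. Exon borders of the gene were not read, and whether they set these edges was not tested. The shared edges were therefore not read as a separate likeness of the salt lists. Several blocks in both salt lists with a single block in both control lists were found in 37 of 2990 genes with exactly 1 peak in each list, or 1.24%. The reverse was found in 2 genes, or 0.0669%. By spans, the peaks of all 6 pairs of lists overlapped, but a rule of at least 0.5 of both spans left 1 pair, and of at least 0.5 of both summed block lengths left 4.

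**Figure D3:**
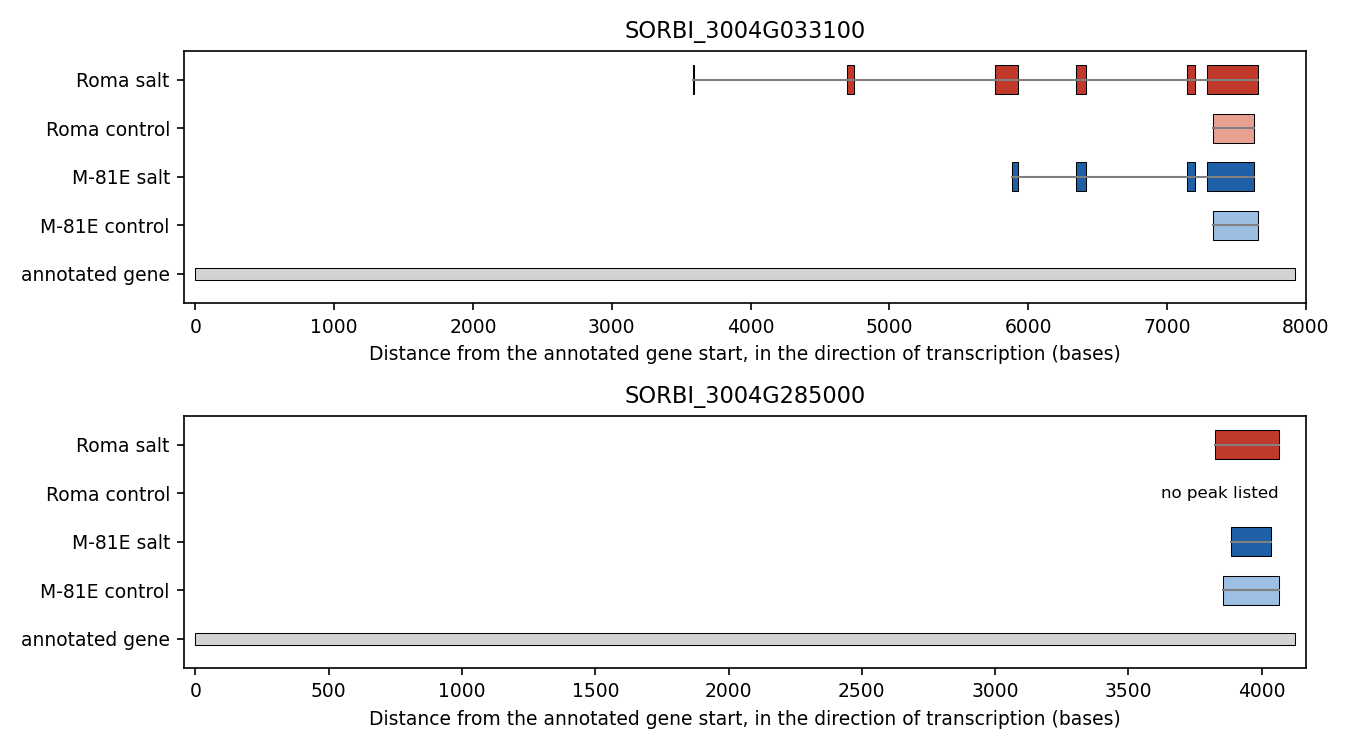
Blocks of the listed m6A peaks (filled boxes, joined by a line within a peak) along SORBI_3004G033100 (top) and SORBI_3004G285000 (bottom) in each list (rows), with the distance from the annotated gene start in bases on the x axis. The salt peaks of SORBI_3004G033100 have 6 blocks in Roma and 4 in M-81E against 1 in each control list, and SORBI_3004G285000 has no peak listed in Roma control.

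The peaks of SORBI_3004G033100 were among the strongest of their lists. The fold enrichment was 403 in Roma salt against 387 in Roma control, and 383 in M-81E salt against 172 in M-81E control. In Roma salt 99.0% of the 12080 peaks had a lower fold, and in Roma control 99.0% of 5949 peaks did. The share was 99.7% of 10255 peaks in M-81E salt and 97.3% of 10219 peaks in M-81E control. The authors' log10 p values of this peak were -1270 in Roma salt, -1280 in Roma control, -725 in M-81E salt and -694 in M-81E control.

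Salt over control, the fold of the SORBI_3004G033100 peak had a ratio of 1.04 in Roma and 2.23 in M-81E, or 0.06 and 1.15 as log2. These folds belong to listed peaks of unlike extent, 712 bases under salt against 297 in control in Roma, and 504 against 327 in M-81E. The ratios therefore do not compare one and the same stretch. Over the 2990 genes with exactly 1 peak in each list, the median log2 ratio of salt over control was 0.72 in Roma (quartiles 0.04 and 1.49) and 0.26 in M-81E (quartiles -0.44 and 0.80). The fold was higher under salt for 76.5% of these genes in Roma and for 60.4% in M-81E. The gene's value was thus near the lower quartile in Roma and above the upper quartile in M-81E. Roma over M-81E, the log2 ratio was 0.07 under salt, where the median was 0.78, and 1.17 in control, where the median was 0.31. The fold of M-81E control was the one that stood below the other 3.

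A neighbour on the opposite strand, SORBI_3004G033200 at 2670426 to 2673636, carried a 3' UTR peak of its own in every list, which began 195 to 313 bases beyond the end of SORBI_3004G033100. Its fold was 40.9 in Roma salt against 14.6 in Roma control, and 13.6 in M-81E salt against 8.90 in M-81E control. The libraries were made to keep strand, per the labels, and the peaks were listed on opposite strands.

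On SORBI_3004G285000 the 3 listed peaks overlapped each other in a single block. They lay at 62738159 to 62738398 in Roma salt (240 bases), 62738189 to 62738338 in M-81E salt (150 bases) and 62738159 to 62738368 in M-81E control (210 bases). The near edge was 60 bases from the annotated gene end in Roma salt, 90 in M-81E salt and 60 in M-81E control. Their positions thus differed by no more than 60 bases at either edge.

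The fold of these peaks was moderate. It was 15.8 in Roma salt, where no Roma control peak was listed, and 5.19 in M-81E salt against 12.7 in M-81E control. In Roma salt 40.1% of all peaks had a lower fold, in M-81E salt 20.3% and in M-81E control 49.4%. The authors' log10 p values were -110 in Roma salt, -23.8 in M-81E salt and -58.9 in M-81E control. Salt over control in M-81E gave a ratio of 0.409, a log2 of -1.29, and Roma over M-81E under salt gave 3.04, a log2 of 1.61. The median log2 ratios were 0.26 and 0.78 over the 2990 genes with exactly 1 peak in each list, which leave this gene out. The peaks had 240 bases in Roma salt, 150 in M-81E salt and 210 in M-81E control, so the ratios do not compare one and the same stretch. In M-81E both the level of the gene and the fold of its peak were lower under salt, and in Roma the peak was listed where the level was higher.

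**Figure D4:**
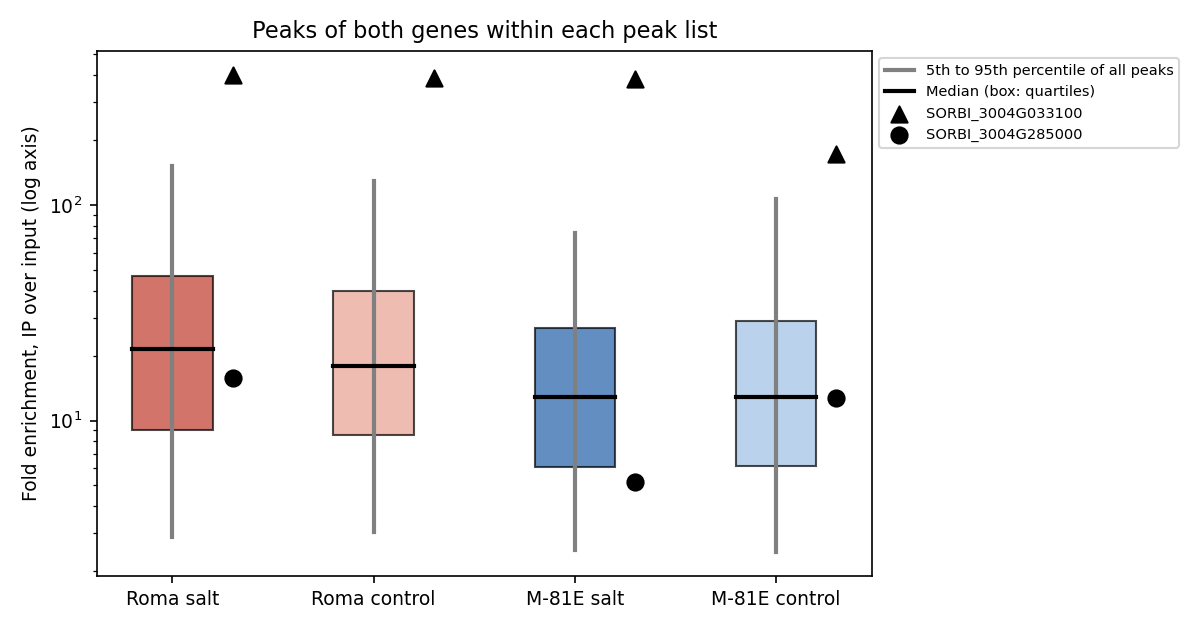
Fold enrichment of IP over input (y axis, log scale) of the SORBI_3004G033100 peak (triangles) and the SORBI_3004G285000 peak (circles) beside all peaks of each list (box, quartiles with the median as a line; grey line, the 5th to the 95th percentile). The triangles lie above the 95th percentile in every list, and no circle is drawn for Roma control, where no peak was listed.

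The missing peak in Roma control stood beside several other values. The Roma control list was the shortest, with 5949 peaks, and 31.1% of genes at FPKM of at least 1 there had one, against 56.8% in Roma salt, 51.6% in M-81E salt and 50.6% in M-81E control. Of 6783 genes with a peak in the other 3 lists, 2199 had none in Roma control, or 32.4%. Among those with a Roma control FPKM within 1.25 times that of SORBI_3004G285000 it was 351 of 752, or 46.7%. Where the highest fold in the other lists was also within 1.5 times that of this gene it was 116 of 176, or 65.9%. The absence of a listed peak was thus common for genes of like level and fold, and the part of list length in it was not tested. A peak that is not listed does not show that the mark is absent.

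Other genes of RNA methylation and of the members' neighbouring processes were counted from the same annotation, leaving both mRNA methylation genes out. Of 33 genes annotated to methylation of tRNA, rRNA, mRNA caps or other RNA, 28 were tested. For salt the limma test called 0 in Roma (median log2 difference -0.12) and 0 in M-81E (median -0.21), against 0.473% and 0.491% of all tested genes. At an unadjusted p under 0.05 in that test there were 0 of 28 in Roma and 5 of 28 in M-81E. Over all 16280 tested genes there were 1924 in Roma and 2085 in M-81E. Without M-81E control replicate 2 the median of the list in M-81E was -0.11, against 0.01 for all tested genes. Between the strains 3 were higher in Roma under salt (median 0.65) and 2 in control (median 0.59), and 0 were lower in either. These are 10.7% of the list under salt and 7.14% in control, against 8.42% and 12.1% of all tested genes. Quantile scaling left 1 called under salt, or 3.57% against 6.31% of all tested genes, and 0 in control, against 9.34%. Without M-81E control replicate 2 there were 14 under salt, or 50.0% against 25.2% of all tested genes, and 12 in control, or 42.9% against 23.9%. The medians of all tested genes were 0.29 under salt and 0.30 in control.

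Among these genes was SORBI_3004G349700, annotated to rRNA methylation in the box C/D snoRNP complex, which guides methylation of ribosomal RNA. It had 143 and 132 FPKM in Roma salt against 41.6 and 47.5 FPKM in M-81E salt, a log2 difference of 1.61 (limma adjusted p = 0.0163). That call was lost without Roma salt replicate 1 (adjusted p = 0.120), Roma salt replicate 2 (0.103) or M-81E salt replicate 1 (0.0906). SORBI_3003G444500, annotated to tRNA and rRNA methyltransferase activity, was higher in Roma by 1.20 under salt (limma adjusted p = 0.0348) and by 1.16 in control (limma adjusted p = 0.0314). It had 7.70 and 8.08 FPKM in Roma salt against 3.63 and 2.25 FPKM in M-81E salt. Both calls were lost without any one Roma library (adjusted p 0.0772 to 0.187) and under quantile scaling (0.0912 under salt and 0.0979 in control), and that under salt also without either M-81E salt library (0.0607 and 0.0956). Neither of the mRNA methylation genes showed a strain difference of that size.

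Over both treatments 13 of the 28 were called higher in Roma and 0 lower, or 46.4%, against 27.7% of all tested genes, with a median of 0.68. Under quantile scaling 5 were called, with a median of 0.40 and 19.0% of all tested genes called. Without M-81E control replicate 2, 20 were called, with a median of 0.72 and 42.4% of all tested genes called. So the count moved with the scaling and with that library, while the median stayed above that of all tested genes, which was 0.30, 0.06 and 0.32 in these fits.

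**Figure D5:**
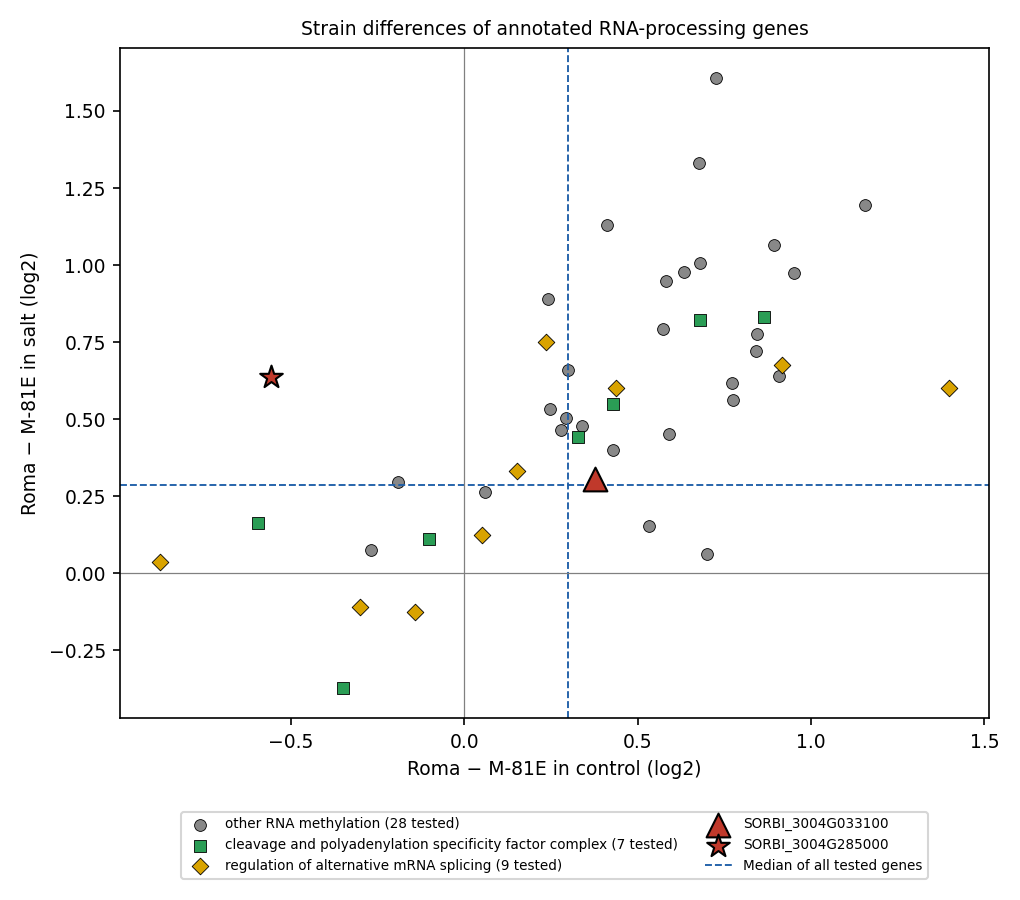
Roma minus M-81E differences in log2(FPKM + 1) in control (x axis) and under salt (y axis) for tested genes of 3 annotated lists (small symbols) and for both mRNA methylation genes (red), with the median of all tested genes as dashed lines. SORBI_3004G033100 lies beside the dashed lines, at 0.31 under salt and 0.38 in control, and SORBI_3004G285000 lies at 0.64 under salt and -0.56 in control.

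Of 10 genes of the cleavage and polyadenylation specificity factor complex, which cuts messenger RNA at its 3' end and includes an m6A reader in Arabidopsis, 7 were tested. The limma test called 0 in each of the 5 comparisons, where 8.42% of all tested genes were called between the strains under salt and 12.1% in control. For salt 0.473% were called in Roma and 0.491% in M-81E, and 0.178% for the difference between the strains' salt changes. At an unadjusted p under 0.05 there were 2 of the 7 between the strains under salt and 2 in control. Of all 16280 tested genes there were 4766 under salt and 5243 in control. For salt in either strain, and for the difference between the strains' salt changes, there were 0 of the 7. Of all tested genes there were 1924 for salt in Roma, 2085 in M-81E and 1421 for that difference. The median strain difference of the 7 was 0.44 under salt and 0.33 in control, against 0.29 and 0.30 for all tested genes. Without M-81E control replicate 2 the median in control was 0.67, against 0.34 for all tested genes. Over both treatments 2 of the 7, or 28.6%, were called higher in Roma, against 27.7% of all tested genes. These were SORBI_3003G427100 (0.75, limma adjusted p = 0.0188) and SORBI_3010G228700 (0.85, limma adjusted p = 0.0276), and each call was lost without any one Roma library (adjusted p 0.0588 to 0.0993). Quantile scaling left 1 of the 7 called over both treatments, or 14.3%, against 19.0% of all tested genes. The median over both treatments was 0.38, and 0.61 without M-81E control replicate 2, against 0.30 and 0.32 for all tested genes.

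Of 10 other genes annotated to regulation of alternative mRNA splicing, the term that SORBI_3004G033100 carries, 9 were tested. In the 5 comparisons 1 was called, SORBI_3001G043500, annotated to the exon-exon junction complex, which was higher in Roma than in M-81E in control by 1.40 (limma adjusted p = 0.0244). It made up 11.1% of the 9, against 12.1% of all tested genes. That call was lost without any one Roma library (adjusted p 0.0549 to 0.140), and a pseudocount of 0.1 gave 2.50. At an unadjusted limma p under 0.05 there were 3 of the 9 for salt in M-81E and 0 in Roma. Of all 16280 tested genes there were 2085 in M-81E and 1924 in Roma. The 3 were SORBI_3003G123000 (-2.37), SORBI_3009G036900 (-0.57) and SORBI_3003G122900 (0.76), with limma adjusted p of 0.313 to 0.379. The median strain difference of the 9 was 0.33 under salt and 0.15 in control, against 0.29 and 0.30 for all tested genes. Without M-81E control replicate 2 the median in control was 0.52, against 0.34 for all tested genes. Over both treatments 2 of the 9, or 22.2%, were called higher in Roma, against 27.7% of all tested genes: SORBI_3001G043500 (1.00, limma adjusted p = 0.0131) and SORBI_3003G122900, annotated to the U2 snRNP (0.80, limma adjusted p = 0.0230). The call of SORBI_3003G122900 was lost without any one Roma library or M-81E salt replicate 1 (adjusted p 0.0656 to 0.0800). Quantile scaling left 1 of the 9 called over both treatments, or 11.1%, against 19.0% of all tested genes. The median over both treatments was 0.24, and 0.43 without M-81E control replicate 2, against 0.30 and 0.32 for all tested genes.

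Of the tested genes of RNA methylation 25.0% had a peak in all 4 lists, as did 42.9% of those of the polyadenylation complex and 11.1% of those of splicing regulation, against 27.5% of all tested genes. A peak in all lists but Roma control, as on SORBI_3004G285000, was found in 7.14%, 28.6% and 44.4% of these lists, in the same order, which is 2, 2 and 4 genes, against 12.7% of all tested genes.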

How the data were processed

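Poly(A) RNA of roots was fragmented to m6A IP and input libraries, per the labels. The deposited FPKM are the authors' expression values, per the file headers. The columns' names match descriptions of IP samples, while the peak lists' names give them to the compared samples. Per the file headers, the authors give each peak a fold enrichment, a ratio of IP to input. The deposited score column holds each peak's p value, and separate deposited columns hold the log10 of that p value and of the false discovery rate. The peak caller, genome build and annotation are not given in the sources read. HISAT2, StringTie, edgeR, ChIPseeker, cutadapt and FastQC are named, with no role, in the submitters' processing notes.

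Both genes and the gene lists were chosen with earlier results of these data known; 3 lists and the comparison of the strains over both treatments were added after the annotation and the levels had been read. Levels were tested in R 4.3.3 with limma 3.58.1 on log2(FPKM + 1), mean FPKM of at least 1, 4 group means, eBayes with a trend, Benjamini-Hochberg adjustment. The fit was tested on simulated data. With 2 replicates per group, the pooled spread sets the precision. Replicate numbers did not pair the libraries, since same-numbered deviations correlated at -0.0376 to 0.0384. Named genes are both members, a neighbour, the 5 genes most like each member, and list genes past the threshold. Of the RNA methylation genes past it, only some are named. Splicing regulation genes with an unadjusted limma p under 0.05 for salt in M-81E are named too. Alternatives were the pseudocount, filters, scaling, the replicate block, the samples in the fit, the trend and leaving out each library. Peak lists were handled with Python 3.11.15, pandas 2.3.3 and numpy 2.4.6, and figures were drawn with matplotlib 3.10.9.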

Additional observations from a re-analysis of the deposited data

Results flagged for a closer look

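SORBI_3004G285000 moved in opposite directions under salt in the 2 strains: both salt libraries were higher than control in Roma and lower in M-81E. The difference of the salt changes, Roma minus M-81E, was 1.19 on the log2 scale (SE 0.310, limma adjusted p = 0.372), which did not pass the test.

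SORBI_3001G043500, a gene of alternative splicing regulation annotated to the exon-exon junction complex, did the reverse. It had 2.22 and 2.68 FPKM in Roma salt against 2.90 and 2.91 FPKM in Roma control, and 1.17 and 1.38 FPKM in M-81E salt against 0.819 and 0.205 FPKM in M-81E control. The difference of its salt changes was -0.80 (SE 0.360, limma adjusted p = 0.605), and 7.31% of tested genes separated in opposite directions in the strains.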

How the results depend on the processing

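In the 5 planned comparisons both genes kept their direction and stayed above an adjusted p of 0.05 under 14 or 15 alternatives each. For SORBI_3004G285000 the salt difference in Roma ran from 0.70 to 1.14 (limma adjusted p 0.0906 to 0.659) and the difference of the salt changes from 0.98 to 1.41 (limma adjusted p 0.0843 to 0.796). In the added comparison over both treatments its value of 0.04 turned to -0.21 under quantile scaling and ran from -0.07 to 0.15 when a library was left out, below 0 without Roma control replicate 2 or M-81E salt replicate 1 (-0.069 and -0.011). With the replicate number as a block, the replicates being unpaired by the labels, the salt difference of SORBI_3004G285000 in Roma was 0.92 with a limma adjusted p of 0.254, and that of SORBI_3004G033100 was -0.14 with 0.844; the block changed no call of either gene. With a library left out, the strain difference of SORBI_3004G285000 ran from 0.54 to 0.74 under salt and from -0.77 to -0.34 in control, and its salt difference in M-81E from -0.37 to -0.17. The number of peaks per gene, 4 and 3, was the same by coordinates and strand. A minimum fold enrichment of 2 could not change it, since the lowest fold of these peaks was 5.19. Counts of all genes called depended on single libraries: 80 for salt in M-81E (34 to 3104 with a library left out), 77 for salt in Roma (33 to 311), 1370 between the strains under salt (258 to 4104) and 1971 in control (280 to 4173), and 29 for the difference of the salt changes (16 to 1089). For salt in Roma and between the strains, the counts were higher without either M-81E control library and lower without any other library. With 2 libraries per group, small changes were not detectable, and the depth behind the values is unknown.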
